A study of Mus musculus with 4 samples.

Results

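The genes described here are the 3 Aster genes Gramd1a, Gramd1b and Gramd1c and 7 other genes of sterol movement inside the cell, Stard3, Stard4, Stard5, Npc1, Npc2, Osbp and Soat2. They were chosen by gene name, and all 15 probes that carry these 10 names were taken, of 34844 names and 55681 probes on the array. The set was selected on earlier results of the same GW3965 to DMSO comparison, so their values in that comparison are given as a description, with the fit over all probes as background. Primary hepatocytes from mice of the strain labelled bl6 were first grown in DMEM with 10% fetal bovine serum. Overnight, all cells then received 0.5% serum together with 5 µM simvastatin, an inhibitor of cholesterol synthesis, and 100 µM mevalonic acid, an intermediate made downstream of the step that simvastatin blocks. The treated group (2 arrays) also received 1 µM GW3965, a man-made ligand that activates LXR, the oxysterol-sensing nuclear receptors of the liver and other tissues, and the control group (2 arrays) received DMSO, the vehicle. Both groups therefore carried the statin and the mevalonic acid, and a group without them was not analysed here. The labels name the replicates a and b in each group without saying whether they came from separate mice or cultures, so errors cover the spread between these samples, which may be technical.

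RNA was measured on 1-colour Agilent arrays that hold 60-base probes. Of the 55681 probes, between 34767 and 38466 per array were well above background, and 0 were saturated. All 15 probes described here were well above background on all 4 arrays and passed the filter on dim probes, which left 35466 probes for the fit. All 6 markers of hepatocytes, among them Alb and Ttr, were well above background on all 4 arrays. Markers of macrophages and leukocytes (7 of 7), endothelial cells (5 of 5), stellate cells and fibroblasts (5 of 6) and cholangiocytes (3 of 4) were measured too. In such samples, fewer cells of a type and less RNA per cell cannot be told apart.

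Cholesterol that leaves the plasma membrane or the lysosome reaches the endoplasmic reticulum largely through proteins that bind single sterol molecules at membrane contact sites. The Aster proteins sit in the endoplasmic reticulum and take up cholesterol from the plasma membrane, while Npc2 and Npc1 bring lysosomal cholesterol to the limiting membrane. START domain proteins and Osbp carry sterols between other membranes, and Soat2 esterifies cholesterol for storage and secretion. In the liver these steps feed the pool of cholesterol that the sensors of the endoplasmic reticulum read.

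Gramd1b, which encodes Aster-B, was read by 2 probes, and these are shown because the main difference in the set rests on them. On mm9 the first, A_52_P325116, lies at chr9:40100866-40100925 and the second, A_55_P1969311, at chr9:40105500-40105559, both on the minus strand and 4574 bp apart. Each is listed in the files with 4 transcript accessions, of which the probes share 0. The longest run that the probes have in common is 5 bases, in capitals in bases 1 to 30 of each, 5′ to 3′, from the array files.
A_52_P325116: cctagaaacacACAAGgctatccagccaaa
A_55_P1969311: ggtggctACAAGaggcctgtgcaatacatg
No run longer than 8 bases was shared between either Gramd1b probe and a probe of another gene in the set.

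Of the 10 genes, Gramd1b alone had both GW3965 arrays above both DMSO arrays, on both of its probes, and the other 9 genes overlapped between the groups on all 13 of their probes. On the scale used throughout, log2 signal minus the array's own 75th percentile, the first Gramd1b probe read 1.41 and 1.50 on GW3965 replicates a and b, against 0.01 and 0.35 on DMSO replicates a and b. The second probe read 1.37 and 1.20 with GW3965, against -0.31 and -0.06 with DMSO. Before scaling, the processed signal of the first probe was 1351 and 1903 with GW3965, against 549 and 768 with DMSO, and that of the second was 1315 and 1551, against 438 and 582. On either probe the lower GW3965 array thus lay above the higher DMSO array, and the groups did not overlap.

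For the first Gramd1b probe GW3965 exceeded DMSO 2.42-fold. The log2 difference came to 1.27 ± 0.22 (SE, n = 2 in each group), with a 95% interval of 0.71 to 1.83. For the second, the excess was 2.77-fold, or 1.47 ± 0.21 on the log2 scale, with an interval of 0.92 to 2.02. Between arrays with the same letter, the difference was 2.63-fold for replicate a and 2.22-fold for replicate b on the first probe, and 3.21-fold and 2.39-fold on the second. The first probe exceeded the second by 0.04 and 0.30 on the GW3965 arrays and by 0.33 and 0.40 on the DMSO arrays, on the log2 scale, which sets the 2 probes side by side without ranking their levels. Among all 35466 probes, the second and first stood at ranks 14 and 22 by unadjusted p and at ranks 72 and 99 by the size of the increase.

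**Figure D1:**
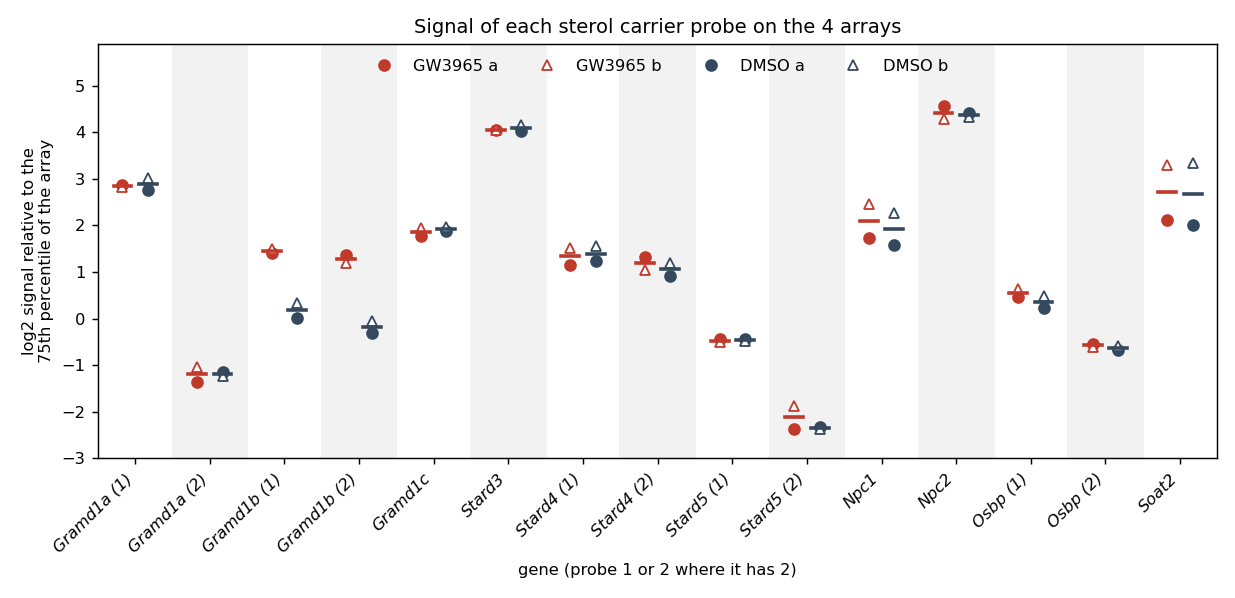
Log2 signal minus the array's own 75th percentile (vertical axis) for the 15 probes of the sterol carriers (horizontal axis), with GW3965 in red left of DMSO in dark blue. Filled circles are replicate a, open triangles replicate b and bars the mean of 2 arrays. The groups are apart for both Gramd1b probes and overlap for the other 13, while Npc1 and Soat2 have the widest gaps between replicate letters. Probes of Gramd1c, Npc2, Osbp, Stard4 and Stard5 also separate by letter, with smaller gaps.

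Across the set, 0 of the 15 probes passed limma at an adjusted p under 0.05, and 0 of all 35466 probes did (0%). Without adjustment 2 of 15 had a p under 0.05, both of Gramd1b, against 1.03% of all probes. The GW3965 arrays were both above the DMSO arrays for 2 of 15, against 10.1% of all probes, and below them for 0 of 15, against 6.54%. A difference of at least 2-fold without overlap was found for the same 2 probes of Gramd1b and for 0.378% of all probes. These shares are given as background only, since the genes were chosen with this comparison known. With each gene read by its brighter probe, the median log2 difference was 0.006 over the 10 genes and -0.02 over the 9 without Gramd1b, beside 0.001 over all probes. With groups of 2, the smallest two-sided p of an exact permutation test is 0.333.

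The other Aster genes differed by less than their errors. Gramd1a encodes Aster-A. Its brighter probe, A_55_P2011943 at chr7:31915146-31915205, read 2.88 and 2.83 with GW3965, against 2.77 and 3.02 with DMSO, a log2 difference of -0.04 ± 0.20 (SE). The dimmer, A_55_P2011942, lies upstream in the transcript at chr7:31919434-31919493 and read -1.37 and -1.03, against -1.15 and -1.24, a difference of -0.006 ± 0.22. The scanner software marked its spot as found on 3 of the 4 arrays, all but GW3965 replicate b. The 95% intervals ran from -0.57 to 0.48 and from -0.57 to 0.56, so that at most a 1.47-fold increase lay within them.

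Gramd1c encodes Aster-C. Its only probe, A_55_P2079713 at chr16:43980737-43980796 on the minus strand, read 1.76 and 1.94 with GW3965, against 1.88 and 1.96 with DMSO. The log2 difference was -0.07 ± 0.20, with an interval of -0.57 to 0.44. The probe holds a run of 5 copies of TTCTG, in capitals in its bases 16 to 45, and it was the only 1 of 55681 probes with so many copies in a row. The sequence is shown because this gene has no other probe against which to set the reading.
A_55_P2079713: ccTTCTGTTCTGTTCTGTTCTGTTCTGctt
Whether other transcripts with such repeats added to its signal was not tested.

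Within the Aster family, then, the 2 Gramd1b intervals lay above 0.71 on the log2 scale, while the upper ends for Gramd1a and Gramd1c were 0.56 or lower. The intervals did not overlap, but the difference between the genes was not tested.

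**Figure D2:**
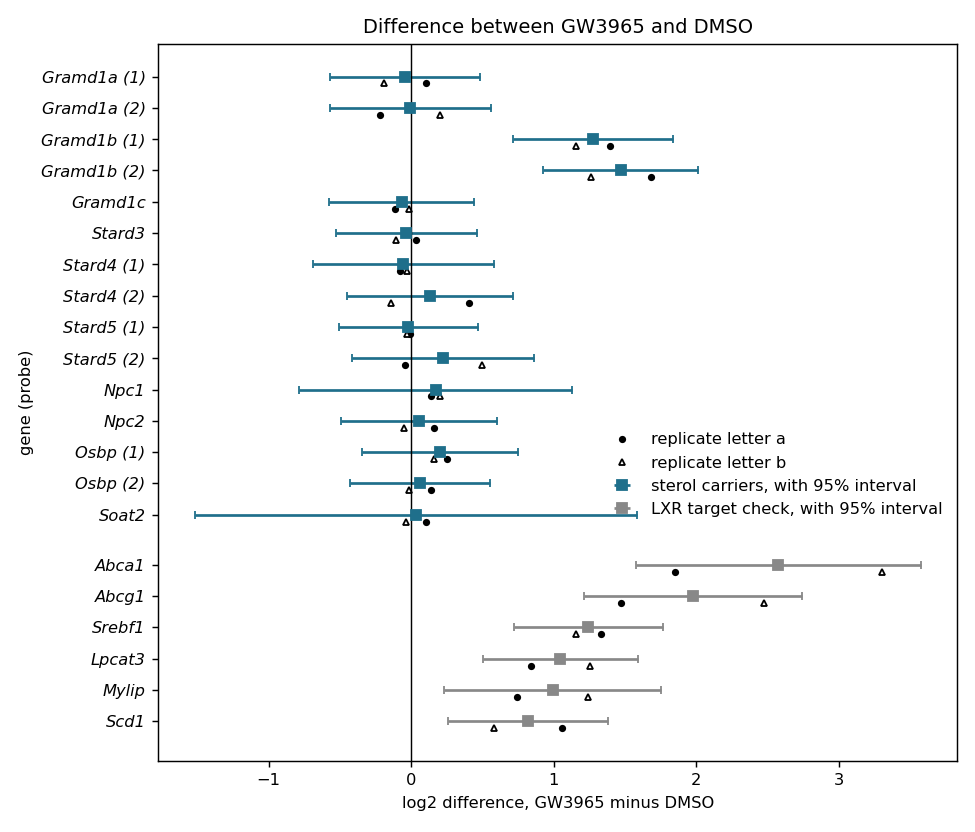
Log2 difference of GW3965 minus DMSO (horizontal axis) for each probe of the sterol carriers and, in grey, for 6 LXR targets (vertical axis). Squares are the limma estimate with its 95% interval, and small circles and triangles the differences between arrays that share the letter a or b. Both Gramd1b probes, at 1.27 and 1.47, sit within the range of the LXR targets from 0.82 to 2.58, and the other probes lie between -0.07 and 0.23.

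LXR targets were set beside Gramd1b as a scale. The list was chosen with earlier results of these data known, so its values describe the treatment and are no independent check of it. All 6 had both GW3965 arrays above both DMSO arrays, against 10.1% of all probes. The log2 difference was 2.58 ± 0.39 (SE) for Abca1 and 1.98 ± 0.29 for Abcg1, which export cholesterol. For Srebf1, a transcription factor of lipid synthesis, it was 1.24 ± 0.20, and for the phospholipid acyltransferase Lpcat3 1.05 ± 0.21. It was 0.99 ± 0.29 for Mylip, a ubiquitin ligase that lowers the LDL receptor, and 0.82 ± 0.22 for the desaturase Scd1. A dimmer Mylip probe, well above background on 2 of the 4 arrays, gave 1.28 ± 0.23. Both Gramd1b probes were thus above Srebf1 and below Abcg1 in size, with intervals that overlap those of both. Both Gramd1b probes differed more on replicate a, as did Srebf1, at 2.51-fold on replicate a and 2.23-fold on replicate b, and Scd1, at 2.09-fold and 1.49-fold. The other 4 targets differed more on replicate b, with Abca1 at 3.61-fold on replicate a and 9.85-fold on replicate b.

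The cell type markers measured beside Gramd1b mostly overlapped between the groups, as did most of all probes. Over all probes, both GW3965 arrays were above both DMSO arrays for 10.1% and below them for 6.54%. For macrophages and leukocytes, 0 of 7 markers were without overlap, the median log2 difference was 0.21, and their summed level ran from 4.95 to 5.72 on the GW3965 arrays and from 4.78 to 5.52 on the DMSO arrays. For endothelial cells, 1 of 5 markers, Tek, had both GW3965 arrays above both DMSO arrays, with a median of 0.11 and a summed level of 5.07 to 5.38 with GW3965 and 5.00 to 5.27 with DMSO. For stellate cells and fibroblasts, 1 of 5, Pdgfrb, did so, with a median of 0.13 and a summed level of 5.18 to 6.29 with GW3965 and 5.27 to 6.21 with DMSO. Hepatocyte markers overlapped in 6 of 6, with a median of -0.03 and a summed level of 9.41 to 10.06 with GW3965 and 9.62 to 9.93 with DMSO. Cholangiocyte markers overlapped in 3 of 3, with a median of -0.22 and a summed level of 1.79 to 3.17 with GW3965 and 1.78 to 2.96 with DMSO. The mean was higher with GW3965 for 5 of 5 endothelial markers and for 4 of 5 markers of stellate cells and fibroblasts. It was higher for 4 of 7 markers of macrophages and leukocytes, 1 of 6 of hepatocytes and 1 of 3 of cholangiocytes. The log2 difference was 0.25 ± 0.22 (SE) for Tek and 0.39 ± 0.19 for Pdgfrb. The part of these cell types in the Gramd1b difference was not tested.

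The lysosomal genes overlapped between the groups. Npc2, the soluble protein that hands cholesterol to Npc1, read 4.58 and 4.28 with GW3965, against 4.41 and 4.33 with DMSO (A_51_P347961, chr12:86097947-86098006). The log2 difference was 0.05 ± 0.21 (SE), with an interval of -0.49 to 0.60. Npc1, the membrane protein that moves cholesterol out of the lysosome, read 1.73 and 2.46, against 1.59 and 2.26 (A_51_P349341, chr18:12349340-12349399). Its difference was 0.17 ± 0.37, with an interval of -0.79 to 1.13. Within each letter GW3965 was higher by 0.14 on replicate a and by 0.20 on replicate b, while the arrays of replicate b exceeded those of replicate a by 0.73 with GW3965 and 0.67 with DMSO. The Npc1 values therefore divided by letter and not by treatment.

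Stard3, a START protein anchored in the membrane of late endosomes, read 4.06 and 4.05 with GW3965, against 4.02 and 4.15 with DMSO (A_51_P154973, chr11:98242252-98242311). Its log2 difference of -0.03 ± 0.19, with an interval of -0.53 to 0.46, was among the most precise of the set.

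Stard4 and Stard5 encode small soluble START proteins that carry sterols through the cytosol, and Stard4 is known in mice as a target of the sterol-regulated factor SREBP2. The brighter Stard4 probe, A_52_P561205, spans 1990 bp of the genome at chr18:33365863-33367852 and thus crosses a splice junction. It read 1.15 and 1.53 with GW3965, against 1.23 and 1.56 with DMSO, a difference of -0.06 ± 0.25. The scanner software marked its spot as found on 2 of the 4 arrays, so that its signal on the other 2 was read at the expected place. The second probe, A_52_P384574 at chr18:33361181-33361240, read 1.33 and 1.05, against 0.92 and 1.19, a difference of 0.13 ± 0.22. The 2 probes had opposite signs, and both intervals, -0.69 to 0.58 and -0.45 to 0.71, covered 0.

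Stard5 was read at -0.45 and -0.51 with GW3965, against -0.44 and -0.48 with DMSO, by its brighter probe (A_55_P2117903, chr7:90789549-90789608), a difference of -0.02 ± 0.19. The other probe, A_52_P481182 at chr7:90790202-90790261, gave -2.37 and -1.87, against -2.33 and -2.36. Its difference of 0.23 ± 0.25, the largest outside Gramd1b, came from GW3965 replicate b alone, and without that array it was -0.03. This was also the dimmest probe of the set, with a processed signal of 98.3 and 184 with GW3965, against 108 and 117 with DMSO.

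Osbp, which exchanges sterol for a phosphoinositide between the endoplasmic reticulum and the Golgi, had small positive differences on both probes. The first, A_51_P393768 at chr19:12068250-12068309, read 0.47 and 0.63 with GW3965, against 0.22 and 0.48 with DMSO, a difference of 0.20 ± 0.21. The second, A_55_P1980956 at chr19:12066457-12066516, read -0.54 and -0.61, against -0.68 and -0.60, a difference of 0.06 ± 0.19. One GW3965 array of each probe lay within the range of the DMSO arrays, and the intervals ran from -0.34 to 0.75 and from -0.43 to 0.55.

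Soat2, the enzyme that esterifies cholesterol in hepatocytes, had the widest spread of the set. Its probe (A_66_P116372, chr15:101993657-101993716) read 2.12 and 3.30 with GW3965, against 2.02 and 3.34 with DMSO. The log2 difference was 0.03 ± 0.60, with an interval of -1.52 to 1.58, so that a 2.99-fold difference lay within it. Replicate b exceeded replicate a by 1.18 with GW3965 and by 1.32 with DMSO. Gaps of at least 1 in both groups, in either direction, were found for 3.56% of all probes. The SD of this gap over all probes was 0.55 in either group, and probes are not independent replicates.

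**Figure D3:**
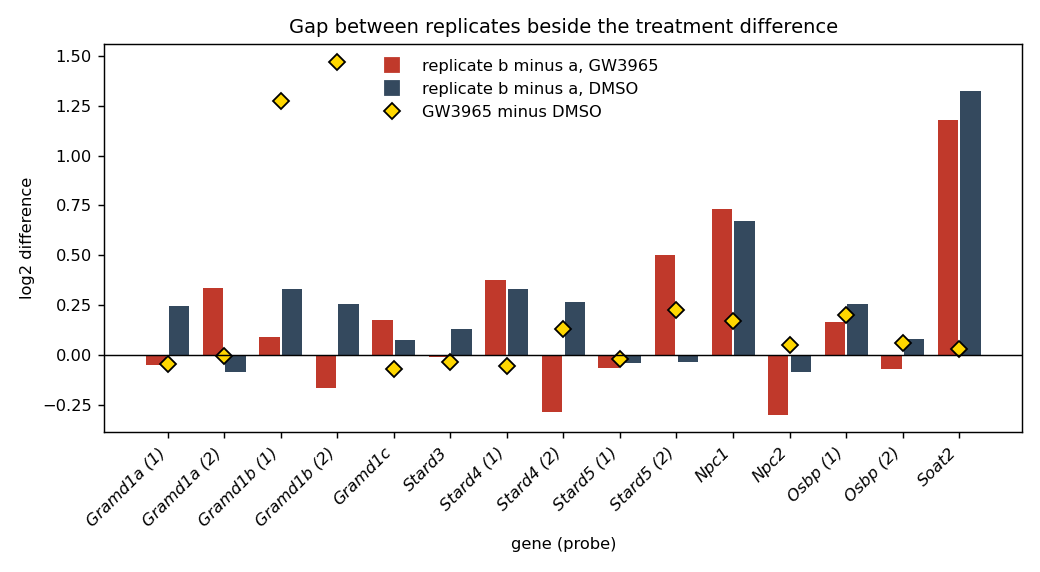
For each probe of the sterol carriers (horizontal axis), bars give replicate b minus replicate a on the log2 scale, with GW3965 in red left of DMSO in dark blue, and diamonds give GW3965 minus DMSO. On all 13 probes outside Gramd1b the larger gap between replicates exceeds the treatment difference in size, and the gaps are widest in Soat2 and Npc1, up to 1.32. In both Gramd1b probes the treatment difference exceeds that probe's own gaps.

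Markers of liver cell types also moved with the replicate letter, and are given beside Soat2 and Npc1. Between replicates b and a, the median gap of the hepatocyte markers was -1.17 with GW3965 and -1.07 with DMSO. That of macrophages and leukocytes was -0.77 and -0.76, and that of endothelial cells 0.56 and 0.28, with single endothelial markers from -0.41 to 1.35 with GW3965. The lowest of these was Kdr on its brighter probe, at -0.41 with GW3965 and -0.34 with DMSO. The other Kdr probe went the other way, at 0.36 and 0.59. The median gap was 0.29 and 0.41 for stellate cells and fibroblasts, and 1.74 and 1.14 for the 3 cholangiocyte markers. Single markers of stellate cells and fibroblasts ran from -1.38 to 0.82 with GW3965 and from -1.18 to 0.91 with DMSO. Those of cholangiocytes ran from -0.40 to 2.35 and from -0.60 to 2.72. Thus Soat2 and Npc1 were higher in replicate b, where the medians of hepatocyte and of macrophage and leukocyte markers were lower and those of the other 3 marker lists were higher. The summed level of stellate cell and fibroblast markers was nevertheless lower in replicate b, at 5.18 against 6.29 with GW3965 and 5.27 against 6.21 with DMSO. Most of that sum was its brightest gene, Dcn, at 4.77 against 6.16 with GW3965 and 4.93 against 6.10 with DMSO. Col1a1, Col3a1 and Des were higher in replicate b in both groups, and Pdgfrb had gaps of -0.13 with GW3965 and 0.03 with DMSO. The part of these cell types in the Soat2 and Npc1 values was not tested. The Gramd1b probes had gaps of 0.09 and -0.16 with GW3965 and of 0.33 and 0.26 with DMSO, with the first probe given first.

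Related genes outside the set were counted on lists that cover 51 genes of sterol carriage, esterification and membrane contact, of which 48 were measured. By limma 0 of the 48 passed at an adjusted p under 0.05 and 0 had an unadjusted p under 0.05. The GW3965 arrays were both above the DMSO arrays in 3 of 48 genes, against 10.1% of all probes, and both below in 5, against 6.54%. The log2 differences ran from -0.38 to 0.25 with a median of -0.07, against 1.27 and 1.47 for the Gramd1b probes. Both ends of that range came from dim probes, of Osbp2 with a processed signal of 19.4 to 26.6 and of Gpr155 with 32.4 to 41.4.

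Among other START domain genes, 11 of 12 were measured, with a median log2 difference of -0.07. Of these, 1 had both GW3965 arrays above both DMSO arrays, against 10.1% of all probes. It was Pctp, a phosphatidylcholine carrier, at 0.20 ± 0.20 (SE). Stard7 stood at -0.17 ± 0.22 and Dlc1 at -0.16 ± 0.32. Of the OSBP-related proteins, which share the sterol or phosphoinositide binding fold of Osbp, 10 of 11 were measured, with a median of -0.14. Here 4 of 10 had the GW3965 arrays below the DMSO arrays, against 6.54% of all probes. They were Osbp2 at -0.38 ± 0.22, Osbpl7 at -0.16 ± 0.21, Osbpl9 at -0.12 ± 0.19, and Osbpl11, named after its values were seen, at -0.08. The Osbp2 probe was dim, with a processed signal of 19.4 and 20.8 with GW3965, against 26.6 and 24.7 with DMSO. Another Osbp2 probe, well above background on 1 of 4 arrays, did not pass the filter. It went the other way, by 0.63 on replicate a and 0.88 on replicate b.

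The list of sterol entry at the lysosome and plasma membrane had 7 of 8 genes measured and a median of -0.07. The putative membrane receptor gene Gpr155 was at 0.25 ± 0.21, and the lysosomal membrane proteins Lamp1 and Scarb2 at -0.12 ± 0.20 and -0.07 ± 0.20. Npc1l1, which takes up sterols at the cell surface, was well above background on 1 of 4 arrays and was not measured. For esterification and ester hydrolysis, 7 of 7 were measured with a median of 0.004. Soat1, a more widely expressed relative of Soat2, was at -0.33 ± 0.33, the ester hydrolase Nceh1 at -0.26 ± 0.20 and the lipase Lipe at 0.06 ± 0.19. The Soat1 probe was dim, with a processed signal of 21.5 and 44.6 with GW3965, against 30.1 and 48.6 with DMSO. Its spot was found on 3 of 4 arrays, and replicate b exceeded replicate a by 0.65 with GW3965 and 0.54 with DMSO.

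Contact site partners and the phosphoinositide cycle that drives Osbp had 9 of 9 genes measured and a median of -0.05. Pi4k2a, a phosphatidylinositol kinase, was at 0.20 ± 0.19 on its brighter probe and at -0.05 ± 0.19 on the other. Of the rest, Stard3nl, a relative of Stard3 without the START domain, was at -0.15 ± 0.30 and the phosphatase Sacm1l at -0.08 ± 0.24. The other cytosolic sterol binders, 4 of 4 measured, had a median of -0.14, with Hsdl2 at -0.18 ± 0.23, Cav1 at 0.22 ± 0.35, Fabp1 at -0.19 ± 0.34 and Scp2 at -0.10 ± 0.38.

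SREBP2 targets were set beside Stard4, since that factor controls the Stard4 gene in mice. All 20 were measured, 16 with a higher and 4 with a lower mean, and the median log2 difference was 0.16. The GW3965 arrays were both above the DMSO arrays in 3 of 20 (Insig1, Mvd and Lss), against 10.1% of all probes, and both below in 0, against 6.54%, and 0 had an unadjusted p under 0.05 by limma. Insig1, which retains the SREBP complex, was at 0.54 ± 0.26 and the mevalonate enzyme Mvd at 0.29 ± 0.23. The Stard4 values of -0.06 and 0.13 lay within the range of this list, from -0.11 to 0.54.

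**Figure D4:**
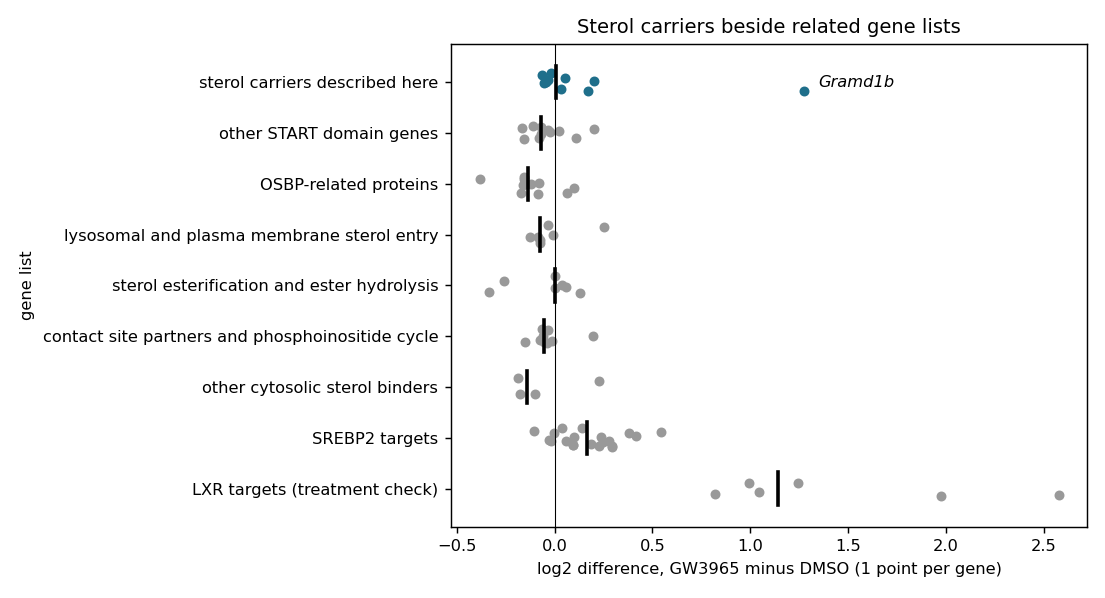
Log2 difference of GW3965 minus DMSO (horizontal axis) for each measured gene, read by its brightest probe, on the list of sterol carriers described here (blue) and on related lists (grey), with the median of each list as a black line. Gramd1b, at 1.27, lies apart from the other carriers and among the LXR targets, whose median is 1.14.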

How the data were processed

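The deposited files hold each spot's intensity on 4 arrays as linear values, from which the scanner software had removed background and spatial trend, with no scaling across arrays. Agilent Feature Extraction 10.7.3.1 made them per the file headers. Version 11.5.1.11 is given in the submitters' processing notes. The value table deposited by the authors held the same intensity for all 62976 features (largest difference 0). The 0 or 1 marks of the scanner software for background, saturation and outlier spots, deposited beside them, served as filters.

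Spots marked as outliers (83 to 141 per array) were left out, log2 processed signals were averaged per probe, and the 75th percentile of the 55681 probes was subtracted on each array. Tested probes were marked well above background by the scanner software on all arrays of 1 or both groups. The comparison of GW3965 with DMSO used limma 3.58.1 under R 4.3.3, two-sided, without a block, with Benjamini-Hochberg adjustment over 35466 probes and a threshold of 0.05. The fit had 2 residual and 2.85 prior degrees of freedom. It was tested on simulated data with independent noise on each array. Those data held no gap shared by arrays of the same letter, so they do not show how the fit behaves with such gaps. A gene of a list stands by its probe with the highest mean. Probe positions are on mm9, and gene names are those of the files. The summed level of a marker list is the log2 of its summed linear values, so that its brightest genes weigh most. Figures were drawn with matplotlib 3.10.9.

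Members, lists and tests were chosen with earlier results of these data known. All 10 members are named with all probes, and of each other list the 3 genes with the smallest p, or all on lists of 4 or fewer and for LXR targets. A gene that this rule names is not reported here. Of the marker lists, the genes named were chosen after their values were seen. Alternatives were quantile normalization, median centring, normexp with an offset of 50, the deposited values, all probes unfiltered, only probes well above background on every array, a single probe or the mean of probes per gene, an intensity trend, the replicate letter as a block, and each array left out in turn.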

Additional observations from a re-analysis of the deposited data

How the results depend on the processing

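Under the 12 alternatives that keep the probes apart, the log2 difference of Gramd1b stayed between 1.11 and 1.44 for the first probe and between 1.34 and 1.60 for the second, and 0 of the 15 probes passed at an adjusted p under 0.05. By construction, the choice of filter, the intensity trend, the replicate block and the deposited values left the difference of each probe unchanged. These alternatives therefore say nothing on how stable its size is. In the other 2 alternatives, with 1 value per gene, Gramd1b was at 1.27 on its brighter probe, unchanged for the same reason. It was at 1.37 as the mean of its probes, and 0 of the 10 genes passed in either. Over all probes, 0 passed except for 16 with the replicate letter as a replicate block and 1 without DMSO replicate b, and neither call was a probe of the set. With each array left out in turn, the count over all probes ran from 0 to 1, and the median over the 10 genes from -0.10 to 0.09. Soat2 was at its lowest, -0.63, without DMSO replicate a and at its highest, 0.69, when DMSO replicate b was left out. Npc1 was at -0.19 without GW3965 replicate b and at 0.54 when GW3965 replicate a was left out, so both changed sign with 1 array. The number of probes at an unadjusted p under 0.05, 365 in the fit reported, was 77 with normexp, 149 with the filter on all arrays, 196 with an intensity trend, 201 with 1 probe per gene name, 232 with the mean of probes, 708 without DMSO replicate b, 1072 with no filter and 1956 with the replicate block; fewer features were tested with the filter on all arrays and per gene, more with no filter, and the other causes were not tested. The labels do not say that the letters pair the samples. Over all probes, which are not independent, the gaps between b and a in the 2 groups had a correlation of 0.69, and with the replicate block the Soat2 difference was 0.03 ± 0.13 (SE) and the Npc1 difference 0.17 ± 0.13. All 15 probes were marked well above background, but the spots of a Gramd1a and a Stard4 probe were not found on every array. Whether dim signal limited any probe was not tested. The part of the number of arrays and of the replicate letter in the precision was not tested.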

Other observations

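The widest gaps between replicates among the relatives of the carriers were chosen after their values were seen. Both probes of Osbpl3, an OSBP-related protein, were lower in replicate b than in replicate a, by -2.03 and -2.02 on the log2 scale with GW3965 and by -1.93 and -1.92 with DMSO, while its brighter probe differed by -0.16 ± 0.92 (SE) between GW3965 and DMSO. Acot12, a START domain thioesterase, had gaps of -1.33 with GW3965 and -1.85 with DMSO, and a treatment difference of -0.07 ± 0.75. Both probes of Scp2, a peroxisomal sterol carrier, were lower in replicate b, by -1.01 and -0.81 with GW3965 and by -0.88 and -0.63 with DMSO, and Lcat, which esterifies plasma cholesterol, had gaps of -0.67 with GW3965 and -1.04 with DMSO. The START domain genes Stard8 and Star were higher in replicate b, the direction of Soat2 at 1.18 and 1.32. Stard8 was higher by 0.89 with GW3965 and 0.76 with DMSO, and Star by 0.70 and 0.65 on its brighter probe. The dimmer Star probe had gaps of 0.63 with GW3965 and 0.14 with DMSO. Even the brighter Star probe had a processed signal of only 74.8 and 160 with GW3965, against 82.6 and 144 with DMSO. These values describe the arrays that share a letter.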
